A study of Mus musculus with 59 samples.

Results

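The 9 genes described here, Dntt, Rag1, Rag2, Vpreb1, Vpreb3, Igll1, Cd79a, Cd79b and Blnk, encode the recombination machinery and the pre-B cell receptor of early B lymphocytes. They were chosen by name out of the 51562 genes listed in every RNA-seq table of a mouse bone marrow study on the histone chaperone Daxx and the transcription factor Pu.1, which is encoded by Spi1. Reads were recorded for 7 of the 9 genes, and Rag1 and Rag2 were listed at 0 in all 59 libraries. The clearest pattern was that of Dntt, which in KLS cells and granulocyte-monocyte progenitors (GMPs) collected 3 weeks after deletion was higher in every Daxx-KO library than in every WT library, and which in a separate set of KLS libraries without a time point was nearly absent from the Daxx-KO samples.

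B cells assemble their antigen receptors by cutting and rejoining V, D and J gene segments. The Rag1 and Rag2 proteins form the recombinase that cuts the DNA, and Dntt encodes terminal deoxynucleotidyl transferase, which adds nucleotides without a template to the ends before they are joined. Once a heavy chain has been made, it pairs with the surrogate light chain of Vpreb1 and Igll1 (λ5), and Vpreb3 encodes a related chain of early B cells. The complex signals through the Igα and Igβ chains, encoded by Cd79a and Cd79b, and the adaptor Blnk (SLP-65) passes the signal from the kinase Syk to downstream enzymes. In bone marrow, Dntt is already transcribed in lymphoid-primed multipotent progenitors, before commitment to the B lineage, whereas the surrogate light chain marks pro-B and pre-B cells.

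All libraries were made from sorted bone marrow cells of C57BL/6 mice that carried 1 Cre allele (Cre +/-), controls included. KLS cells (Lin- c-Kit+ Sca-1+) hold stem cells and multipotent progenitors, and GMPs are Lin- c-Kit+ cells without Sca-1 that carry CD34 and CD16/32. At 3 weeks post induction (w.p.i.) of the Mx1Cre line, whose Cre is switched on by pI:pC, KLS cells and GMPs came from 3 control animals (Daxx +/+, called WT), 3 with Daxx F/F (Daxx-KO) and 2 with Daxx F/F Pu.1 F/F (DKO). An Mx1Cre line with floxed Pu.1 alone gave 2 Pu.1 +/+ (Pu.1-WT) and 2 Pu.1 F/F (Pu.1-KO) libraries of each cell type at 3 w.p.i. At 24 w.p.i. there were 2 WT and 4 Daxx F/F libraries of each cell type. The labels give Pu.1 F/F to 2 of these 4 animals without tying it to a column, so the 4 are called Daxx-deleted. A further set of 2 WT and 2 Daxx-KO libraries per cell type, KLS cells and GMPs, had neither a time point nor a Cre line in its labels and is called untimed. The study's methods describe sorting of KLS cells and GMPs from transplanted mice as well as from induced mice. For RNA-seq of these cells it names irradiated recipients of transplanted marrow and induced mice at 3 and 24 w.p.i. The labels do not say which the untimed libraries are. Multipotent progenitors MPP3 (Flk2- CD48+ CD150-) and MPP4 (Flk2+ CD48+ CD150-) came from the same 4 animals at 3 w.p.i., 2 WT and 2 Daxx-KO, with no genotype given for a column. The 7 libraries of long-term haematopoietic stem cells (LT-HSCs) came from a tamoxifen-inducible RosaCreER line at 3 days post induction (d.p.i.). The labels list them as 2 Daxx +/+, 2 heterozygous Daxx +/F and 3 Daxx F/F, again with no genotype for a column. Both MPP gates and the LT-HSC gate excluded Il-7Ra+ cells, and Mx1Cre deletes in many cells of the marrow besides those sorted. Replicate numbers in the labels were taken to mark separate animals, and p-values measure only the spread between these libraries.

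The total of gene reads ran from 3045852 to 30136629 per library. Daxx, the targeted gene, fell in every Daxx-KO, DKO and Daxx-deleted comparison with its controls, by 1.98 and 2.42 on the log2 scale in untimed KLS cells and GMPs and by 2.42 to 3.19 at the timed points. The level of Spi1 did not fall in the libraries labelled Pu.1 F/F as that of Daxx did, since in DKO KLS cells Spi1 was higher by 0.76 than in WT (adjusted p = 0.0155) and by 1.03 than in Daxx-KO (adjusted p = 0.00346), and its differences of −0.30 in Pu.1-KO KLS cells and −0.46 in Pu.1-KO GMPs did not pass the test (limma). The floxed part of the gene is not given in the sources used here, so the Pu.1 F/F labels are taken as they stand and could not be checked. In the KLS libraries of DKO animals, 10 of 10 neutrophil markers had reads and summed to 10126 to 11204 RPM (reads per 1000000 gene reads of the library), against 41.8 to 2142 in WT. The KLS library of Daxx-KO animal 2 held more reads of 7 of 7 measured members than that of any of the other animals at 3 w.p.i., and its GMP library did so for 6 of 7. In the MPP table the MPP3 library of animal b and the MPP4 library of animal a stood apart, with 26512 and 25435 genes above 0 against 12200 to 21105 in the others. These libraries deviated together, with a correlation of 0.910 between their deviations from the group means, against −0.444 and −0.0370 between the MPP3 and MPP4 libraries of animals a and b, and whether they were swapped or mixed was not tested. The main fitted differences that rest on these libraries are given below with and without them. The mature B cell marker Ms4a1 was listed at 0 in every library.

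The genes lie in pairs that share a neighbourhood. In the mm10 (GRCm38.p6) annotation Dntt spans chr19:41029275-41059525 on the plus strand, 34.7 kb from Blnk (chr19:40928927-40994535, minus strand). Vpreb1 (chr16:16868403-16870843) and Igll1 (chr16:16860671-16863985) lie 4.42 kb apart on the minus strand of chromosome 16, and 9.01% of the exonic bases of Vpreb1 lie inside Top3b, whose reads cannot be kept apart there unless counting used strand, which is not given in the sources used here. Vpreb3 is at chr10:75943057-75949657 on the plus strand, Cd79a at chr7:24897381-24902197 on the plus strand and Cd79b at chr11:106311341-106314762 on the minus strand. Rag1 (chr2:101638282-101649501, minus strand) and Rag2 (chr2:101624718-101632529, plus strand) are separated by 5.75 kb.

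Promoters are shown for the neighbours Dntt and Blnk, which are described most below, and for the surrogate light chain genes and Vpreb3, as 250 bases before and 50 bases after the RefSeq start, 5′ to 3′ on the strand of the gene. Capitals mark matches, on either strand, to CAGGTG (an E2A E-box), GAGGAA (a PU.1 core), CCCNNGGG (EBF1), TGGGAA (Ikaros) or ATGCAAAT (the octamer), the last of these having been chosen after the promoters were read. The windows are, in mm10, chr19:41029025-41029324 (plus) for Dntt, chr19:40994172-40994471 (minus) for Blnk, chr16:16869206-16869505 (minus) for Vpreb1, chr16:16863936-16864235 (minus) for Igll1 and chr10:75948050-75948349 (plus) for Vpreb3.
Dntt: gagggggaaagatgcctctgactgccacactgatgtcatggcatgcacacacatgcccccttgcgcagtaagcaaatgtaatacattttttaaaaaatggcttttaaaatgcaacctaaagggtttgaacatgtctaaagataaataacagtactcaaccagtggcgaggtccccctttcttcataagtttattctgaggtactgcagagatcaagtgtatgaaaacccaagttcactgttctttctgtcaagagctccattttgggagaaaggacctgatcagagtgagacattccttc
Blnk: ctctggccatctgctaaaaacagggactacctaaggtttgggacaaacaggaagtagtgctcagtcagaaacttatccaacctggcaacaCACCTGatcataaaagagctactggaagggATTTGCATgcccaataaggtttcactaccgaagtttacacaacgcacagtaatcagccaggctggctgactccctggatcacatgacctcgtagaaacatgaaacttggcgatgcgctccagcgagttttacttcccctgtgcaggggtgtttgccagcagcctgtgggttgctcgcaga
Vpreb1: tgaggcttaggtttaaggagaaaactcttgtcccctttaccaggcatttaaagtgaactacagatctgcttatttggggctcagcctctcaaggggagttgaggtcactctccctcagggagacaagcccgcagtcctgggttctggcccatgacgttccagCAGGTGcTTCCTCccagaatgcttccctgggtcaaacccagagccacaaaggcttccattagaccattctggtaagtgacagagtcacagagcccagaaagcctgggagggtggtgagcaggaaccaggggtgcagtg
Igll1: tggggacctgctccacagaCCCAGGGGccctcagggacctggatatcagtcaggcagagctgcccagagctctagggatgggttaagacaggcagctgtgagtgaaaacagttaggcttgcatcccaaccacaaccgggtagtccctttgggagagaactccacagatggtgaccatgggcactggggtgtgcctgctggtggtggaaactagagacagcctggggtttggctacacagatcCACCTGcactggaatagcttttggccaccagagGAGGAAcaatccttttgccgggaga
Vpreb3: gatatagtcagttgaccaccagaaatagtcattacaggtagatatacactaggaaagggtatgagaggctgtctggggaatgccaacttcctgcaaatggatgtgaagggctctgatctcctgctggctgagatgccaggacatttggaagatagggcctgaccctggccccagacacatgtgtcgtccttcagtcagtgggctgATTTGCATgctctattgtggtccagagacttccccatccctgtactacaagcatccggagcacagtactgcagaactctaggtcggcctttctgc

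The Dntt window held none of these letters, whereas the Igll1 window held an EBF1 match that starts 231 bases before the start, an E2A match and a PU.1 match. In Vpreb1 the E2A and PU.1 matches began 88 and 81 bases before the start. Blnk and Vpreb3 each held an octamer, 130 and 45 bases before the start. Of the 8 members with a RefSeq promoter in the table used, which leaves out Cd79b, the E-box was in 5 (Blnk, Cd79a, Igll1, Rag1 and Vpreb1), the PU.1 core in 4, the octamer in 2, the EBF1 letters in 1 (Igll1) and the Ikaros letters in 1 (Rag1). Over all 32851 mouse promoters of this length, the E-box was in 20.2%, the PU.1 core in 28.3%, the EBF1 letters in 13.7%, the Ikaros letters in 25.6% and the octamer in 1.74%. These are matches of letters and not sites.

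The zeros of Rag1 and Rag2 were not read as absence. Both genes lie wholly inside B230118H07Rik (chr2:101560781-101649532, minus strand), which had reads in every library, from 11.9 to 58.1 RPM. Of 1243 protein-coding genes that lie inside another gene, 88.3% were listed at 0 in all 59 libraries, whereas this held for 3.13% of the 20419 that do not. Reads of Rag1 and Rag2 therefore could not be examined, and the rest of the account concerns the other 7 genes.

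The mean level of Dntt differed between cell types by far more than that of Cd79b. Levels of different genes are compared here as RPKM, reads per kilobase of exon per 1000000 gene reads (mean ± SD over libraries). Dntt reached 289 ± 189 in MPP4 cells (n = 4), 68.3 ± 32.9 in MPP3 cells (n = 4) and 60.3 ± 15.3 in WT KLS cells at 3 w.p.i. (n = 3). It was 5.21 ± 4.90 in LT-HSCs (n = 7) and 0.756 ± 0.674 in WT GMPs (n = 3). The tables were normalised separately, and the LT-HSC and MPP groups mix genotypes, so that this order is a description. MPP4, KLS and MPP3 libraries overlapped in their levels, whereas every MPP3 library, at 92.3 to 266 RPM, lay above every LT-HSC library, at 0 to 33.1. Among WT GMP libraries of all tables Dntt ran from 0.705 to 7.46 RPM, which overlapped the LT-HSCs.

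Cd79b (Igβ) was the most abundant of the 7 genes per length in WT GMPs of every table. Its level per kilobase was 7.81 ± 1.55 in WT GMPs and 9.19 ± 3.39 in WT KLS cells, both at 3 w.p.i., and 7.17 ± 4.53, 6.69 ± 1.88 and 7.31 ± 1.11 in LT-HSCs, MPP3 and MPP4 cells. These groups did not differ beyond their spread. In other tables WT KLS cells and GMPs did differ in Cd79b beyond their spread, in opposite directions, with 13.0 ± 0.982 in KLS cells and 5.83 ± 0.454 in GMPs at 24 w.p.i. and 5.83 ± 0.976 and 10.96 ± 0.114 in the untimed set (n = 2 each). Its partner Cd79a was at 2.88 ± 2.48 in the same WT KLS cells and 0.853 ± 0.229 in WT GMPs. Blnk was at 3.15 ± 2.17 in WT KLS cells and 0.427 ± 0.249 in WT GMPs. The surrogate light chain genes and Vpreb3 were lowest, with Igll1 at 0.289 ± 0.175, Vpreb1 at 0.624 ± 0.517 and Vpreb3 at 0.636 ± 0.492 in WT KLS cells.

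**Figure D1:**
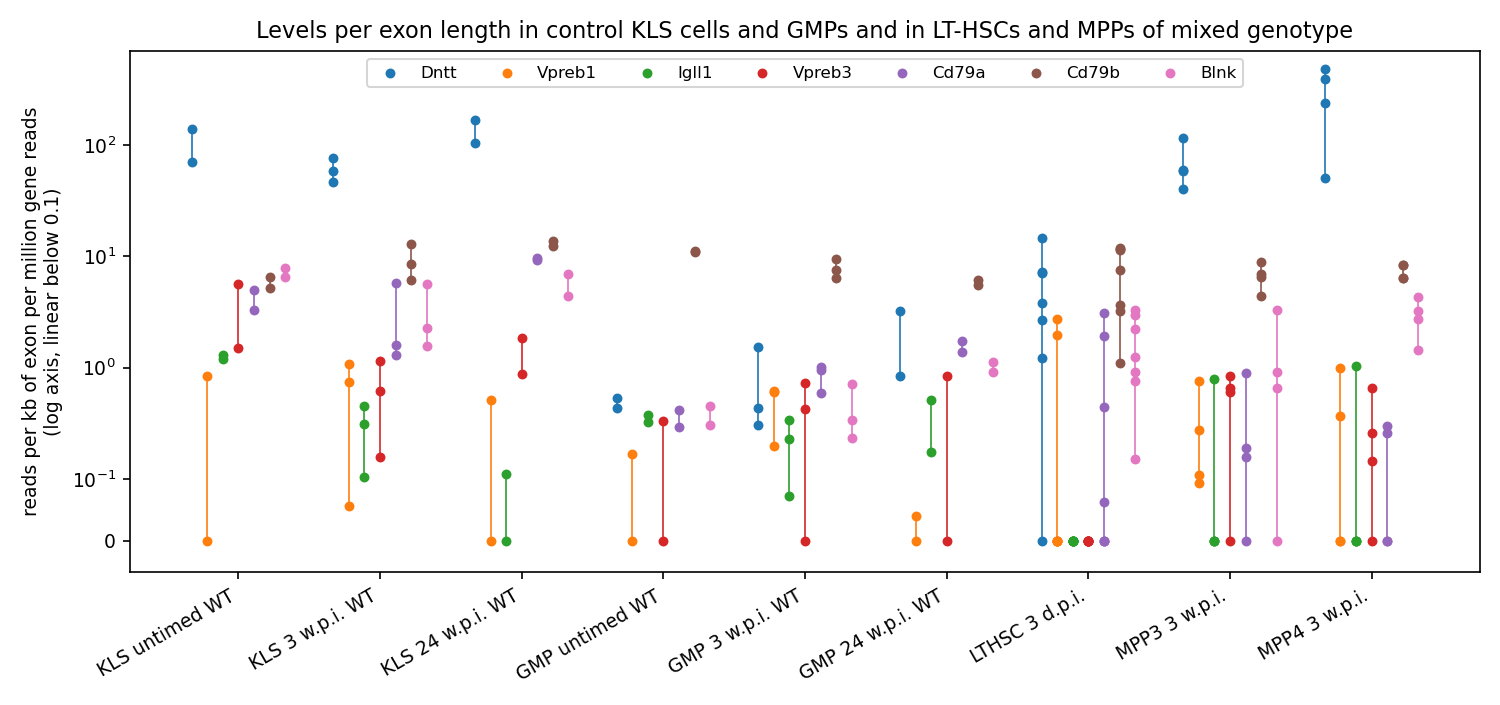
RPKM, reads per kilobase of exon per 1000000 gene reads, for the 7 members with reads, in control KLS cells and GMPs and in LT-HSC, MPP3 and MPP4 libraries. Dntt averages 289 in MPP4 cells and 0.756 in WT GMPs at 3 w.p.i., whereas Cd79b averages between 5.83 and 13.0 in the control KLS and GMP groups.

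In LT-HSCs only Dntt, Cd79a, Cd79b and Blnk had a mean of 10 or more normalised counts (reads divided by the size factor of the library). Dntt ran from 0 to 316 normalised counts with a median of 82.7, Blnk from 8.60 to 189 with a median of 70.4, and Cd79b from 15.2 to 161 with a median of 100.4. Cd79a ran from 0 to 42.2. Igll1 and Vpreb3 were at 0 in all 7 libraries and Vpreb1 was above 0 in 2. The genotypes of these columns are not given, so no comparison was made.

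MPP4 cells are the lymphoid-primed and MPP3 cells the myeloid-biased multipotent progenitors, and 3 members, Dntt, Cd79b and Blnk, were high enough to be compared between them. Dntt was at 1433, 1042, 1412 and 2795 normalised counts in the MPP3 libraries of animals a to d and at 6414, 1129, 9184 and 11391 in their MPP4 libraries. It was higher in the MPP4 library in 4 of 4 animals, narrowly so in animal b, and the groups overlapped, a count that rests on the labels of the libraries that stood apart. The fitted difference was 1.75 on the log2 scale (SE 0.58, unadjusted p = 0.010, adjusted p = 0.999, limma). This fit had no term for the animal, although both populations came from the same 4 animals. An unplanned fit with the animal number as a block called 0 members and 0% of genes. By limma 0 members and 0% of the 20137 genes tested were called, with 1 of the 3 members tested at an unadjusted p under 0.05. Neither edgeR, on 15228 genes, nor DESeq2, on 27950, called any gene. Without both libraries of animal b the Dntt difference was 2.30 (adjusted p = 0.000857), and without the 2 libraries that stood apart it was 1.46 (adjusted p = 0.941).

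Blnk was at 42.8, 223, 0 and 58.2 normalised counts in MPP3 and at 309, 84.6, 197 and 171 in MPP4 libraries. Cd79b was at 67.7, 106, 133 and 104 in MPP3 and 140.4, 89.2, 121 and 94.4 in MPP4. Vpreb1 ran from 0 to 14.2, Vpreb3 from 0 to 7.84 and Cd79a from 0 to 14.3 over the 8 libraries. Igll1 had reads in just the MPP3 library of animal b and the MPP4 library of animal a, which also held the most Ebf1 (1546 and 2050 normalised counts against 10.7 to 423) and the highest sums of T cell markers (146 and 181 RPM). The part of these other reads in the result was not tested. Each MPP group mixes WT and Daxx-KO animals. The related lists gave 0 calls by all 3 tools, with 2 of 12 early lymphoid genes and none of the 13 B-lineage factors, 19 pre-B signalling genes or 13 recombination partners tested at an unadjusted p under 0.05.

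In the untimed KLS libraries, the Daxx-KO cells held almost no reads of Dntt, Blnk and Cd79a. Dntt, Blnk and Cd79a were lower in the Daxx-KO cells and Cd79b was higher. Dntt was at 1072 and 2182 normalised counts in the WT libraries and at 10.9 and 2.12 in the Daxx-KO libraries. The adaptor Blnk was at 261 and 317 in WT and at 0 and 3.03 in Daxx-KO. Both genes thus had ample reads in each WT library and next to none in each Daxx-KO library, although Daxx-KO library 2 was the deepest, with 22647397 reads.

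Cd79a was at 48.2 and 32.7 in WT and 4.38 and 1.52 in Daxx-KO, whereas its partner Cd79b was at 61.9 and 50.0 in WT and 119 and 149.7 in Daxx-KO. The receptor chains therefore moved in opposite directions, with no overlap of the groups for either. Of all genes tested, 29.8% were lower and 32.9% higher in both Daxx-KO than in both WT libraries. Of the surrogate light chain genes, Igll1 was at 17.2 and 18.9 in WT and at 0 in both Daxx-KO libraries. Vpreb1 was at 0 and 6.89 in WT and likewise at 0 in both Daxx-KO libraries. Vpreb3 was at 8.60 and 32.7 in WT and 5.47 and 4.55 in Daxx-KO. Igll1 and Vpreb1 were below the filter on low values of the limma fit. Igll1 was called as lower with no filter (adjusted p = 0.0338, limma), by edgeR (adjusted p = 0.00123) and by DESeq2 (adjusted p = 0.00132). In these bulk samples, fewer cells of a type and less RNA per cell cannot be told apart.

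By limma on log2(normalised count + 1), 4 of the 5 members tested were called (adjusted p under 0.05), against 23.1% of the 13508 genes tested. Dntt fell by 7.97 on the log2 scale (SE 0.58, adjusted p = 3.81e-05), Blnk by 7.17 (SE 0.68, adjusted p = 0.000146) and Cd79a by 3.47 (SE 0.72, adjusted p = 0.00958), and Cd79b rose by 1.25 (SE 0.26, adjusted p = 0.0105). Of the 5 members tested, 4 were lower and 1 higher in both Daxx-KO than in both WT libraries, against 29.8% and 32.9% of all genes. Dntt and Blnk alone kept the call when the fit left out Daxx-KO 1 or Daxx-KO 2. The same libraries differed in other respects. Markers of stem and multipotent progenitors, of which 10 of 10 had reads in each library, summed to 9708 to 9888 RPM in WT and 3858 to 4997 in Daxx-KO, plasma cell markers to 327 to 676 in WT and 132 to 154 in Daxx-KO, and plasmacytoid dendritic cell markers to 1397 to 1639 in WT and 817 to 905 in Daxx-KO. Mature B cell markers, with Ms4a1 at 0, summed to 121 to 129.6 in WT against 47.2 to 66.0 in Daxx-KO, T cell markers to 22.6 to 25.4 against 13.6 to 15.1, and GMP markers to 1369 to 1389.9 against 2304 to 2832. The sums of 10 pro-B and pre-B markers overlapped, at 403 to 467 and 415 to 540, and the part of these differences in the result was not tested.

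Related genes were called as well, in a comparison that called 23.1% of all genes. Of 14 transcription factors of the B lineage, 9 of the 13 tested were lower in Daxx-KO and none higher, led by Irf4 (a log2 difference of −6.70), the octamer coactivator Pou2af1 (−6.50) and Ebf1 (−5.92), the factor that opens the B cell programme. Of 14 early lymphoid genes, 4 of the 10 tested were lower, among them the interleukin 7 receptor Il7r (−5.80) and Ly6d (−5.58), and 2 were higher. In a list of 20 genes of pre-B receptor signalling 5 of 18 were higher and 7 lower, the latter including the kinase Blk (−5.05) and Cd72 (−2.82). Of 14 partners of the surrogate light chain and of recombination, 1 of 13 was higher (Dclre1c, by 0.68) and 2 were lower (Hmgb1 by −0.45 and Xrcc4 by −0.42).

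In the untimed GMPs the members were near the detection limit except Cd79b. Dntt was at 7.81 and 6.33 normalised counts in WT and 10.1 and 0 in Daxx-KO libraries. Blnk was at 11.7 and 17.2 in WT and 10.1 and 1.63 in Daxx-KO. Cd79b was at 101 and 99.4 in WT and 122 and 157 in Daxx-KO. The other 4 genes with reads, Vpreb1, Vpreb3, Igll1 and Cd79a, ran from 0 to 8.97 over the 4 libraries. Only Blnk and Cd79b passed the filter on low values. By limma 0 of these 2 members were called against 33% of 12744 genes, with 0 of 2 at an unadjusted p under 0.05, and edgeR and DESeq2 called 0 as well. The other members were too low for this fit. Among them Igll1 alone was lower in both Daxx-KO than in both WT libraries, at a mean of 0.204 against 4.86 normalised counts. Of all genes tested, 34.1% were lower in this way. With no filter 2 of 7 members were at an unadjusted p under 0.05 and 0 were called (limma). Among the related lists, against the same 33% of all genes, 2 of 8 B-lineage factors were higher and 4 lower, with Ikzf3 changed by −4.33, 9 of 17 pre-B signalling genes were higher and 3 lower, with Bank1 up by 3.45, and 3 of 13 recombination partners were higher and 4 lower, with Xrcc5 up by 2.5. Of 8 early lymphoid genes 3 were higher and 4 lower, with Flt3 changed by −2.74. Neutrophil markers summed to 5104 to 7155 RPM in these Daxx-KO GMPs and 736 to 1025 in WT, and their part was not tested.

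At 3 w.p.i. the direction of Dntt in KLS cells was the opposite of that in the untimed libraries. Dntt, Blnk, Igll1 and Vpreb3 were higher in every Daxx-KO KLS library than in every WT library, and Dntt alone passed the test. Dntt was at 10360.5, 18887 and 6767 normalised counts in Daxx-KO animals 1 to 3 and at 1761, 2314 and 1409 in WT animals 1 to 3. The lowest Daxx-KO library lay well above the highest WT library. Dntt rose by 2.62 on the log2 scale (SE 0.39, adjusted p = 0.0294, limma), as 1 of 7 members and 0.257% of 15200 genes called. The adjusted p ranged from 6.69e-05 to 0.165 over 13 alternatives, 9 of which kept the call. The call was lost without Daxx-KO animal 1 or 2 or WT animal 1 or 2, and the adjusted p was 0.0858 without Daxx-KO animal 2, with a difference of 2.22.

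The surrogate light chain genes and Vpreb3 were highest in 1 animal. Igll1 was at 76.9, 1178 and 22.0 normalised counts in Daxx-KO animals 1 to 3 and at 13.0, 8.83 and 3.00 in WT. Vpreb1 was at 29.4, 555 and 12.6 in Daxx-KO against 11.9, 0.883 and 17.0 in WT. Vpreb3 was at 20.4, 456 and 24.1 in Daxx-KO against 13.0, 1.77 and 7.003 in WT. For all 3 genes Daxx-KO animal 2 was the highest of the 8 animals by a wide margin, whereas the other Daxx-KO animals lay above or within the WT range. The fitted differences were 3.97 (SE 1.27) for Igll1, 3.01 (SE 1.33) for Vpreb1 and 3.21 (SE 1.25) for Vpreb3, with adjusted p of 0.312, 0.423 and 0.382 by limma, and without animal 2 they were 2.37, 1.42 and 1.77.

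Of the signalling members, Blnk was at 595, 2964 and 719 in Daxx-KO against 125, 177 and 448 in WT, which differed by 2.32 (SE 0.60, adjusted p = 0.209). Cd79a was at 79.2, 1269.6 and 136 in Daxx-KO against 24.9, 30.9 and 111 in WT. Cd79b was at 131, 627 and 216 in Daxx-KO against 163, 116 and 244 in WT. Both overlapped between the groups, and for both the highest library was that of animal 2. In all, 4 of the 7 members did not overlap between Daxx-KO and WT with the Daxx-KO libraries higher, a pattern shown by 9.07% of all genes tested.

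The KLS library of Daxx-KO animal 2 also stood apart in other genes of the B lineage. Its 10 pro-B and pre-B markers summed to 1577 RPM, against 534 and 624 in the other Daxx-KO libraries and 373 to 460 in WT. Ebf1 was at 23895 normalised counts against 216 to 3512 in the other 7 libraries, and stem and multipotent progenitor markers summed to 3472 RPM against 6649 to 9915 in WT. The mature B cell markers summed to 130 to 178 RPM in Daxx-KO and 106 to 124 in WT, with 7 or 8 of 9 above 0 and Ms4a1 at 0. The part of such cells in the members' levels was not tested, and without animal 2 the fitted difference of Blnk was 1.60 (SE 0.46, adjusted p = 0.445), beside that of Dntt given above.

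Among the related lists at 3 w.p.i., the chemokine receptor Ccr9 rose by 4.07 in Daxx-KO KLS cells (adjusted p = 0.0209), as 1 of 12 early lymphoid genes tested, of which 8 were at an unadjusted p under 0.05, and edgeR called 1 of the 12 and DESeq2 6. Of the B-lineage transcription factors limma called 0 of 14, although 6 had an unadjusted p under 0.05, and edgeR called 0 and DESeq2 2. The pre-B signalling list gave 0 of 20 by limma and edgeR and 1 by DESeq2, with 5 at an unadjusted p under 0.05. The recombination partners gave 0 of 14 by all 3 tools, with 4 at an unadjusted p under 0.05.

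**Figure D2:**
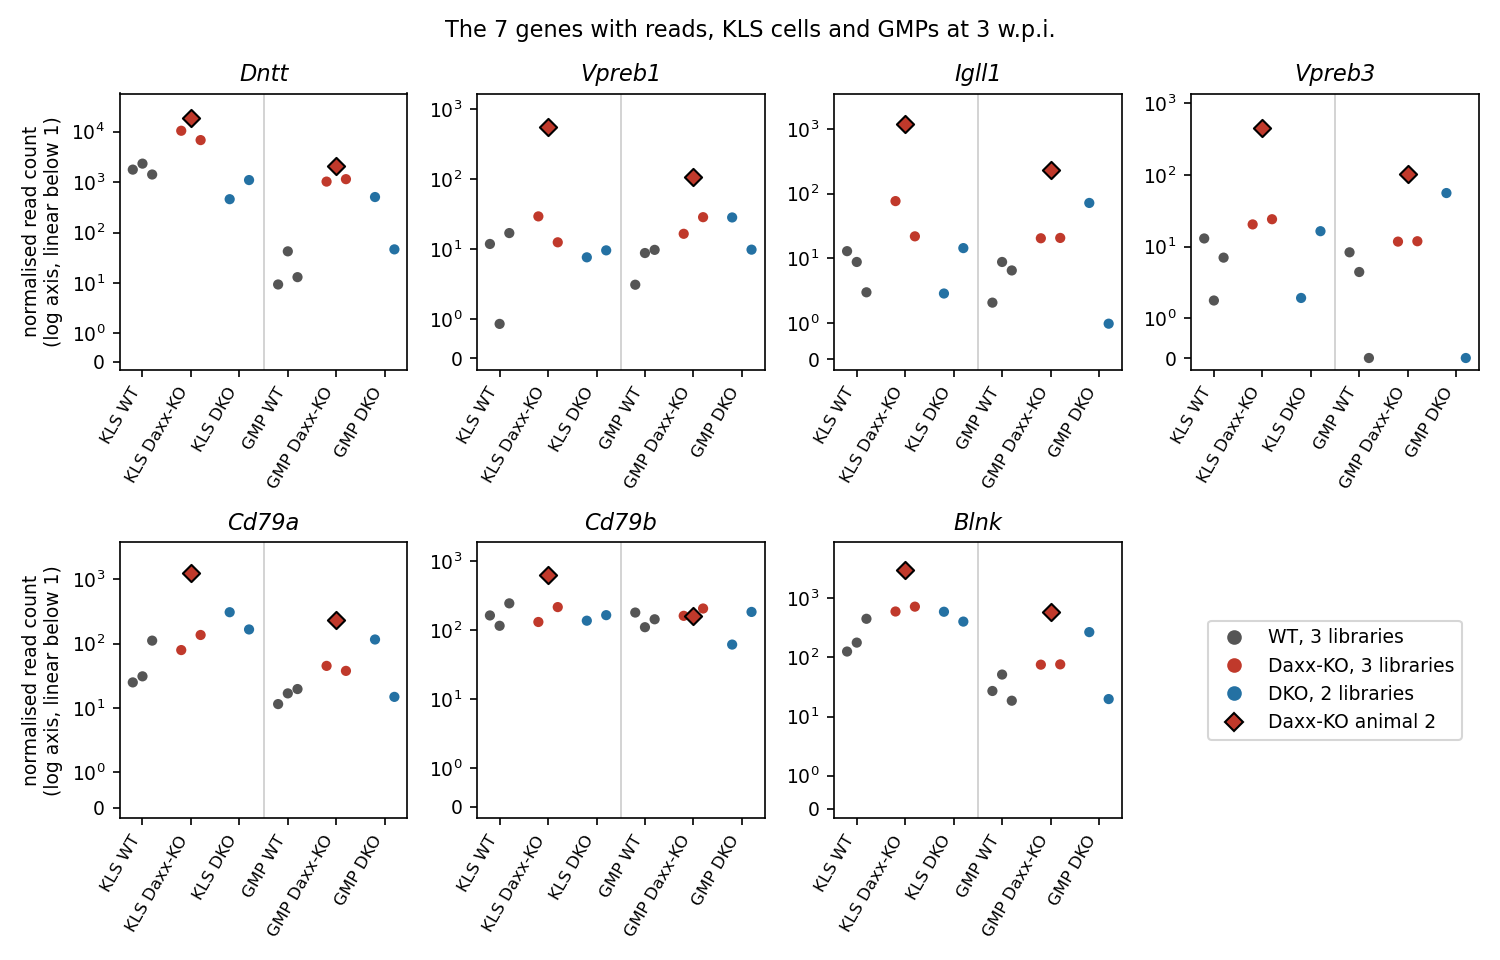
Normalised count of the 7 members with reads in each KLS and GMP library at 3 w.p.i., on a log axis, for WT, Daxx-KO and DKO animals, with Daxx-KO animal 2 drawn as diamonds. Dntt lies above every WT library in all 3 Daxx-KO animals of both cell types, and the diamonds are the highest points for the surrogate light chain genes.

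In GMPs at 3 w.p.i. the difference in Dntt was larger still. Dntt was at 1019.5, 2042 and 1139.6 normalised counts in Daxx-KO animals 1 to 3 and at 9.35, 42.4 and 13.1 in WT animals 1 to 3. In RPM these Daxx-KO GMPs, at 81.0 to 159, overlapped the WT KLS cells of the same time point, at 106 to 176. Dntt rose by 6.17 on the log2 scale (SE 0.80, adjusted p = 0.0229, limma), as 1 of 7 members and 0.0948% of 13714 genes called. The call was lost with edgeR (adjusted p = 0.0565) and when any of 5 of the 6 libraries was left out, with adjusted p up to 0.132 and a difference of 5.76 to 6.79 throughout. Without animal 2 the difference was 5.87 (adjusted p = 0.0964).

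The other lymphoid members had higher values in Daxx-KO GMPs too, without passing the test. Blnk was at 75.2, 594 and 76.1 in Daxx-KO against 27.0, 51.2 and 18.5 in WT GMPs. Cd79a was at 44.9, 237 and 37.6 in Daxx-KO against 11.4, 16.8 and 19.6 in WT. Igll1 was at 20.5, 229 and 20.8 in Daxx-KO against 2.08, 8.83 and 6.53 in WT. In each of these 3 genes the Daxx-KO libraries lay above the WT libraries. Vpreb1 was at 16.6, 106 and 28.7 in Daxx-KO against 3.12, 8.83 and 9.79 in WT. Vpreb3 was at 11.7, 103 and 11.9 in Daxx-KO against 8.31, 4.41 and 0 in WT. Animal 2 was again the highest for each of these 5 genes, and 6 of 7 members were higher in every Daxx-KO than in every WT library, against 4.64% of all genes tested. The fitted differences were 2.31 for Blnk, 2.18 for Cd79a, 2.96 for Igll1, 2.34 for Vpreb1 and 2.80 for Vpreb3 (adjusted p = 1.00 for each, limma), and without animal 2 they were 1.33, 1.34, 1.82, 1.59 and 1.79 (adjusted p of 0.861 to 0.959). Cd79b was the exception, at 161, 159.7 and 206 in Daxx-KO against 179.7, 110.3 and 144 in WT.

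Pro-B and pre-B markers in these GMPs summed to 645 to 743 RPM in Daxx-KO and 513 to 537 in WT, with 9 or 10 of 10 above 0. Ebf1 was at 605, 7232 and 316 normalised counts in Daxx-KO against 22.9, 368 and 21.8 in WT. The sums of the GMP markers overlapped, at 7328 to 14847 in Daxx-KO and 10841 to 15465 in WT, and so did those of neutrophil markers, at 3256 to 23657 and 4828 to 23267. Their part in the members' levels was not tested. The related lists gave 0 calls by limma and edgeR in these GMPs, with 4 of 13 B-lineage factors, 4 of 9 early lymphoid genes, 1 of 20 pre-B signalling genes and 0 of 13 recombination partners at an unadjusted p under 0.05, and 0, 1, 1 and 0 called by DESeq2.

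KLS cells and GMPs came from the same animals, so that the step between them can be followed in each. In RPM, Dntt was 50.0 to 188 times higher in KLS cells than in GMPs of the 3 WT animals (median 108) and 5.42 to 9.93 times higher in the 3 Daxx-KO animals (median 8.66). The ranges did not overlap, and the share of all genes with such a separation was not computed. These ratios join Dntt levels of the libraries described above and are not a separate result. In DKO animals 1 and 2 the ratio was 0.752 and 22.1. Blnk was 3.18 to 24.2 times higher in KLS cells of WT and 4.67 to 8.62 times higher in those of Daxx-KO animals, and Cd79b was 0.909 to 1.70 and 0.796 to 3.68 times as high. For these genes the genotypes overlapped.

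**Figure D3:**
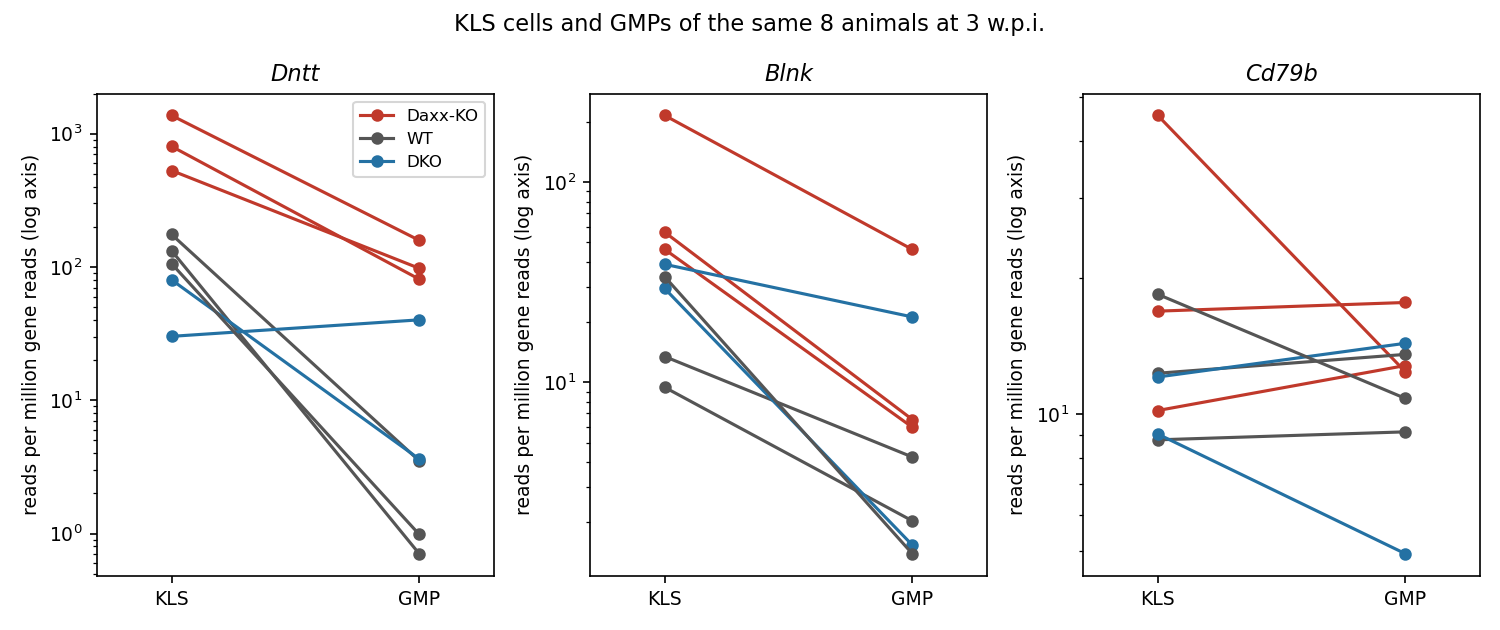
RPM of Dntt, Blnk and Cd79b in the KLS and GMP libraries of each of the 8 animals at 3 w.p.i., joined by a line for each animal, on a log axis. The Dntt lines of the 3 WT animals fall most steeply, by 50.0 to 188 times, against 5.42 to 9.93 times in the Daxx-KO animals.

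The libraries labelled DKO were compared with each of the other genotypes at 3 w.p.i., and these comparisons share the WT or the Daxx-KO libraries with the one above. In KLS cells Dntt was at 457 and 1094 normalised counts in the DKO animals, below every WT library, as 1 of 7 members against 23.7% of all genes, and far below every Daxx-KO library. Relative to Daxx-KO it fell by 3.95 on the log2 scale (SE 0.44, adjusted p = 0.000512, limma), as 1 of 7 members and 15.4% of all genes called, and the call held under all 12 alternatives. Relative to WT the difference was −1.34 (SE 0.44, adjusted p = 0.0633). By limma 0 of 7 members and 17.6% of genes were called against WT, with 2 members at an unadjusted p under 0.05, and edgeR and DESeq2 called 0 as well. Without DKO animal 2 or WT animal 3, Dntt was called against WT too.

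Igll1 was at 2.87 and 14.5 in the DKO KLS libraries. Vpreb1 was at 7.66 and 9.64 and Vpreb3 at 1.92 and 16.4. All 3 overlapped the WT levels. Against Daxx-KO the difference was −4.05 for Igll1 (SE 1.42, adjusted p = 0.0864) and −3.13 for Vpreb3 (SE 1.39, adjusted p = 0.168). With Blnk at 589 and 402, 5 of 7 members were lower in every DKO than in every Daxx-KO library, against 22.3% of all genes. Without Daxx-KO animal 2 the differences from Daxx-KO were −2.45 for Igll1 (adjusted p = 0.162), −1.70 for Vpreb3 (adjusted p = 0.374), −1.08 for Vpreb1 and −0.43 for Blnk, and −3.56 for Dntt (adjusted p = 0.00125, limma). Cd79a went the other way relative to WT, at 308 and 166 in DKO, a difference of 2.33 (SE 1.03, adjusted p = 0.151). Cd79b was at 137 and 165.

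These DKO KLS libraries carried, besides the neutrophil markers given above, GMP markers that summed to 7687 to 8867 RPM against 1819 to 4423 in WT and 1317 to 1709 in Daxx-KO. Stem and multipotent progenitor markers were at 2639 to 4046, against 6649 to 9915 in WT and 3472 to 7224 in Daxx-KO, which overlapped DKO. Pro-B and pre-B markers summed to 218 to 249 in DKO, 373 to 460 in WT and 534 to 1577 in Daxx-KO. Plasma cell markers, 10 of 10 with reads, summed to 1307 to 1386 in DKO, 103 to 964 in WT and 378 to 1264 in Daxx-KO. The part of this difference in cell content in the Dntt result was not tested. The related lists are read against the 15.4% of all genes called relative to Daxx-KO and the 17.6% called relative to WT. Of the early lymphoid list, 5 of 12 genes were lower in DKO than in Daxx-KO, with the receptor Flt3 changed by −3.68, and none was higher. Relative to WT 4 were lower, with Flt3 changed by −2.66, and 3 higher, with Tcf7 up by 3.20 and Ly6d up by 2.85. Of the B-lineage transcription factors 3 of 14 were lower than in Daxx-KO (Irf8, Bach2 and Bcl11a) and 2 lower than in WT (Bcl11a and Bach2), and none was higher in either. In the pre-B signalling list 3 genes were higher and 4 lower than in WT, the kinase Btk falling by 2.96 and Prkcb rising by 2.70, and 1 was higher and 3 lower than in Daxx-KO. Among the recombination partners 2 were higher and 1 lower than in WT, with the polymerase Polm up by 3.26, and 1 was higher and 2 lower than in Daxx-KO.

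In GMPs the DKO animals differed from each other. Dntt was at 504 and 46.4 normalised counts in DKO animals 1 and 2, both above the WT and below the Daxx-KO libraries. Every DKO library was higher than every WT library in 2 of 7 members, Dntt and Vpreb1, against 10.1% of all genes, and lower than every Daxx-KO library in 1, Dntt, against 9.98%. The fitted differences were 3.07 against WT (SE 0.90, adjusted p = 0.318) and −3.11 against Daxx-KO (adjusted p = 0.295). By limma 0 of 7 members were called in either comparison, against 0.292% of genes for WT and 0.0583% for Daxx-KO, with 1 member at an unadjusted p under 0.05 in each, and edgeR called 0 in both. DESeq2 called 1, Dntt, against WT and 0 against Daxx-KO.

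The gap between the DKO animals held for the other lymphoid members. Blnk was at 267 and 19.7 in animals 1 and 2. Cd79a was at 116 and 14.8 and Igll1 at 72.0 and 0.986. Vpreb1 was at 28.4 and 9.86 and Vpreb3 at 55.8 and 0. All 5 were higher in animal 1. Cd79b was at 61.9 and 183, lower in animal 1. The GMP library of DKO animal 1 also held 2483 normalised counts of Ebf1 against 17.8 in animal 2, and the part of other cells in these levels was not tested. The related lists gave 0 calls by limma and edgeR in both comparisons. Against WT 2 of 13 B-lineage factors, 4 of 9 early lymphoid genes, 3 of 20 pre-B signalling genes and 0 of 13 recombination partners were at an unadjusted p under 0.05, with 0 called by DESeq2, and against Daxx-KO these counts were 0, 2, 1 and 2, with 1 early lymphoid gene called by DESeq2.

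Pu.1 regulates myeloid genes and also binds genes of the B lineage, and the Pu.1 line carries the floxed Pu.1 allele without that of Daxx. In KLS cells no member passed the test. Dntt was at 5653 and 2541 normalised counts in Pu.1-WT and at 3089 and 1127 in Pu.1-KO libraries. Blnk was at 705 and 796 in Pu.1-WT and 1556 and 728 in Pu.1-KO. Igll1 was at 77.3 and 56.5 in Pu.1-WT and 145 and 111 in Pu.1-KO. Of these, Igll1 alone did not overlap between the genotypes. Vpreb1 was at 20.3 and 29.5 in Pu.1-WT and 37.4 and 60.8 in Pu.1-KO. Vpreb3 was at 71.8 and 37.1 in Pu.1-WT and 78.4 and 67.2 in Pu.1-KO. Cd79a was at 157 and 83.5 in Pu.1-WT and 298 and 122 in Pu.1-KO. Vpreb3 and Cd79a overlapped, and Vpreb1 did not. Cd79b was at 228 and 227 in Pu.1-WT and 214 and 78.1 in Pu.1-KO. In all, 2 of 7 members were higher in both Pu.1-KO than in both Pu.1-WT libraries, against 33.7% of all genes. By limma 0 of 7 members were called, against 0.81% of 23459 genes, with 0 members at an unadjusted p under 0.05, and edgeR and DESeq2 called 0. The median of all genes lay at 0.12 on the log2 scale, and at 0.26 with TMM scaling. The related lists gave 0 calls by all 3 tools, with 2 of 14 B-lineage factors, 3 of 12 early lymphoid genes, 3 of 20 pre-B signalling genes and 2 of 13 recombination partners at an unadjusted p under 0.05.

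In GMPs of the same line 4 of 7 members were higher in the libraries labelled Pu.1-KO, against 17.6% of 19337 genes called. Igll1 was at 5.29 and 0 normalised counts in Pu.1-WT and 50.0 and 63.4 in Pu.1-KO libraries. Blnk was at 116 and 176 in Pu.1-WT and 459.7 and 245 in Pu.1-KO. Cd79a was at 33.9 and 33.9 in Pu.1-WT and 135 and 71.1 in Pu.1-KO. Each Pu.1-KO library lay above both controls for these genes. Dntt was at 59.3 and 77.0 in Pu.1-WT and 220.2 and 117 in Pu.1-KO. It did not overlap either, and with Vpreb3 5 of 7 members were higher in both Pu.1-KO libraries, against 31.5% of all genes. By limma Igll1 rose by 4.51 on the log2 scale (SE 1.04, adjusted p = 0.000545), Cd79a by 1.5 (SE 0.49, adjusted p = 0.0201), Dntt by 1.24 (SE 0.39, adjusted p = 0.0156) and Blnk by 1.22 (SE 0.31, adjusted p = 0.00195). In this table the fit took the spread almost wholly from all genes together. Igll1 was called under all 9 alternatives that gave it an adjusted p, DESeq2 having given none and called Blnk, Cd79a and Dntt, and Igll1 alone was called when Pu.1-WT a, Pu.1-WT b or Pu.1-KO a was left out.

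Vpreb3 was at 18.0 and 19.6 in Pu.1-WT and 61.6 and 49.7 in Pu.1-KO, a difference of 1.51 (SE 0.63, adjusted p = 0.0745), and its relative Vpreb1 was at 14.8 and 15.7 in Pu.1-WT and 10.8 and 7.71 in Pu.1-KO. Cd79b was at 144 and 172 in Pu.1-WT and 205 and 171 in Pu.1-KO. Among the related genes, beside 17.6% of all genes called, 9 of 14 B-lineage transcription factors were higher and 1 lower, with Pou2af1 up by 2.42, Spib up by 2.00 and Pax5 up by 1.81. The early lymphoid list had 4 of 12 higher, with Il7r up by 2.81 and Ly6d up by 2.57, and 1 lower. The pre-B signalling list had 3 of 20 higher, among them the surface molecules Cd22 and Cd72 by 2.61 and 1.91, and 2 lower, and of the recombination partners 5 of 13 were lower and none higher.

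Neutrophil markers in the Pu.1-KO libraries summed to 12909 to 16266 RPM in GMPs, against 2111 to 2774 in Pu.1-WT, and T cell markers to 41.0 to 72.2 against 25.1 to 30.6. The mature B cell markers, 8 of 9 with reads, summed to 126 to 129 in Pu.1-KO and 99.5 to 108 in Pu.1-WT, and the pro-B and pre-B markers to 463 to 542 and 539 to 579. Their part in the members' levels was not tested.

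At 24 w.p.i., where the comparison of Daxx-deleted with WT was chosen after seeing the data, every Daxx-deleted library held more Dntt than both WT libraries, in KLS cells as in GMPs. In KLS cells it was at 5686 and 9065 normalised counts in WT and 13223, 18625, 13558 and 10621 in Daxx-deleted animals. All 4 Daxx-deleted libraries lay above both WT libraries, and the difference was 0.93 on the log2 scale (SE 0.26, adjusted p = 0.227, limma). Igll1 was at 0 and 5.63 in WT and 146, 89.2, 215 and 8.35 in Daxx-deleted, a difference of 4.80 (SE 1.37, adjusted p = 0.242), and Vpreb1 at 0 and 14.5 in WT and 102, 86.8, 105 and 30.9 in Daxx-deleted, a difference of 4.24 (SE 1.14, adjusted p = 0.205).

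These 3 genes did not overlap between the groups, with Daxx-deleted higher, as 3 of 7 members against 9.05% of all genes. Vpreb3 was at 38.3 and 17.7 in WT and 69.3, 92.9, 87.1 and 19.2 in Daxx-deleted. Blnk was at 635 and 973 in WT and 396, 848, 746 and 737 in Daxx-deleted. Cd79a was at 325 and 329 in WT and 128, 467, 299.6 and 134 in Daxx-deleted. The latter 3 genes overlapped between the groups. Cd79b was at 469.7 and 415 in WT and 296, 365, 249.8 and 246 in Daxx-deleted. Each Daxx-deleted library was lower, as 1 of 7 members against 8.76% of all genes. By limma 0 of 7 members were called, against 0.807% of 16485 genes, with 3 at an unadjusted p under 0.05, and edgeR called 0 and DESeq2 2.

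In GMPs at 24 w.p.i. Dntt was at 43.7 and 167 normalised counts in WT and 262, 244, 356 and 869 in Daxx-deleted animals. It rose by 2.12 on the log2 scale (SE 0.53, adjusted p = 0.0382, limma), as 1 of 7 members and 3.63% of 16894 genes called. The adjusted p ranged from 0.0233 to 0.411 over 12 alternatives, 7 of which kept the call. The call was lost with edgeR and DESeq2 and without WT a or Daxx-deleted c or d, and without WT a the difference was 1.17. Igll1 was at 25.1 and 8.51 in WT and 28.8, 21.1, 59.5 and 82.9 in Daxx-deleted. Blnk was at 154 and 122 in WT and 28.8, 96.3, 126 and 219 in Daxx-deleted. Cd79b was at 201 and 176 in WT and 241, 206, 146 and 201 in Daxx-deleted. For these genes the groups overlapped. Vpreb1 was at 1.09 and 0 in WT and 9.09, 0, 30.2 and 55.5 in Daxx-deleted GMPs. Vpreb3 was at 0 and 16.2 in WT and 10.6, 2.75, 14.7 and 39.9 in Daxx-deleted GMPs. Cd79a was at 45.9 and 57.0 in WT and 62.1, 15.6, 70.5 and 76.6 in Daxx-deleted GMPs. These, too, overlapped, so that 1 of 7 members lay wholly higher, against 12.7% of all genes.

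Of the related genes at 24 w.p.i., the scaffold Bank1 fell by 2.55 in Daxx-deleted KLS cells, as 1 of 20 in the pre-B signalling list. The other 3 lists gave 0 calls there by limma and edgeR, with 6 of 13 B-lineage factors, 5 of 12 early lymphoid genes and 0 of 13 recombination partners at an unadjusted p under 0.05, and 4, 3 and 0 called by DESeq2. In GMPs, where 3.63% of all genes were called, the kinase Fyn fell by 1.08 and Xrcc5, a subunit of the Ku complex, by 1.88, each as the 1 gene of its list called. In the early lymphoid list 4 of 11 genes were higher in GMPs and none lower, led by Ccr9 (2.79), and in the B-lineage list Irf8 was higher (0.77) and Bcl11a lower (−0.65).

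Neutrophil markers at 24 w.p.i. summed to 2240 to 3696 RPM in Daxx-deleted KLS libraries against 426 to 517 in WT, and in GMPs to 11875 to 30988 against 3956 to 4368. Erythroid markers, with Alas2 at 0 in every library, summed to 32.5 to 92.6 in Daxx-deleted KLS libraries against 1398 to 1624 in WT. Their part in the Dntt difference was not tested. Of the 2 Daxx-deleted animals that also carry Pu.1 F/F, neither can be told from the others by its column.

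**Figure D4:**
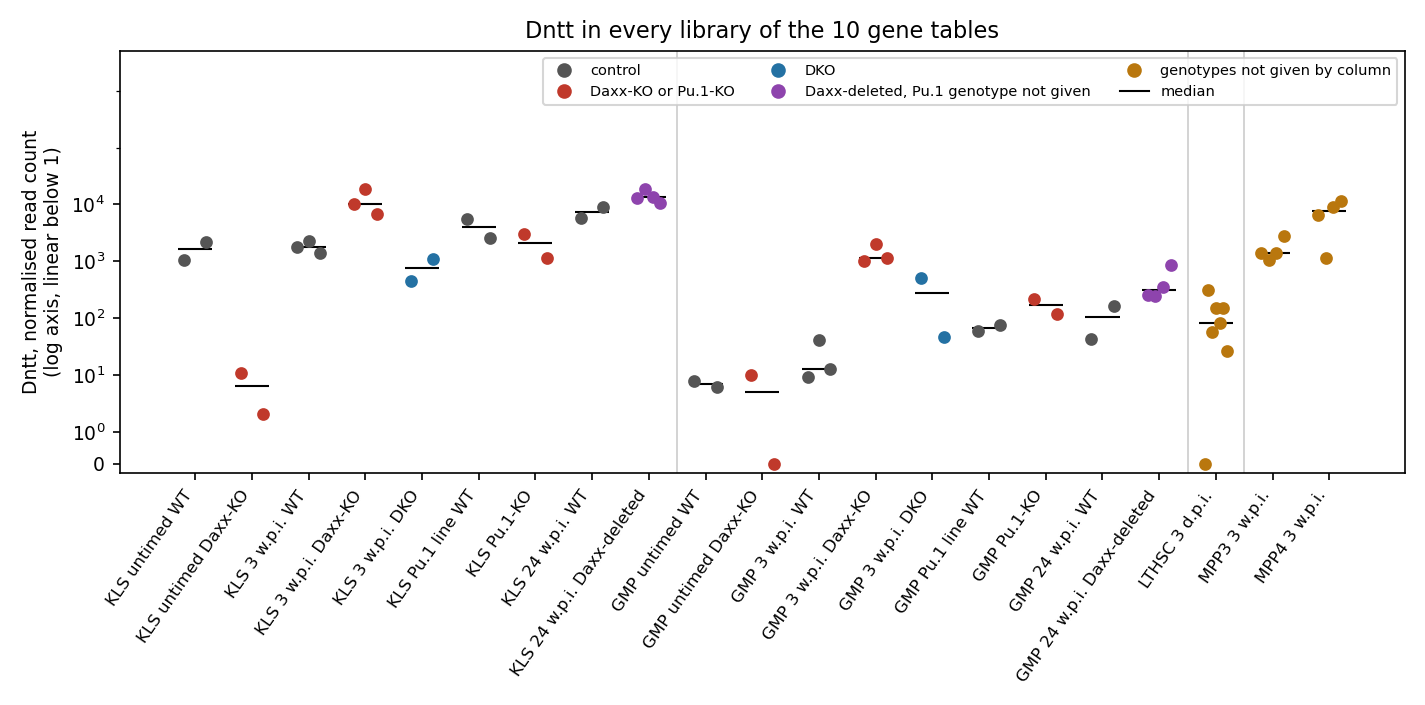
Normalised count of Dntt in each library of the 10 tables, on a log axis that is linear below 1, with a bar at the median of each group. In KLS cells the Daxx-KO points lie below WT in the untimed table and above it at 3 w.p.i., and in GMPs at 3 w.p.i. the Daxx-KO libraries sit between 1019.5 and 2042 against 9.35 to 42.4 in WT.

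**Figure D5:**
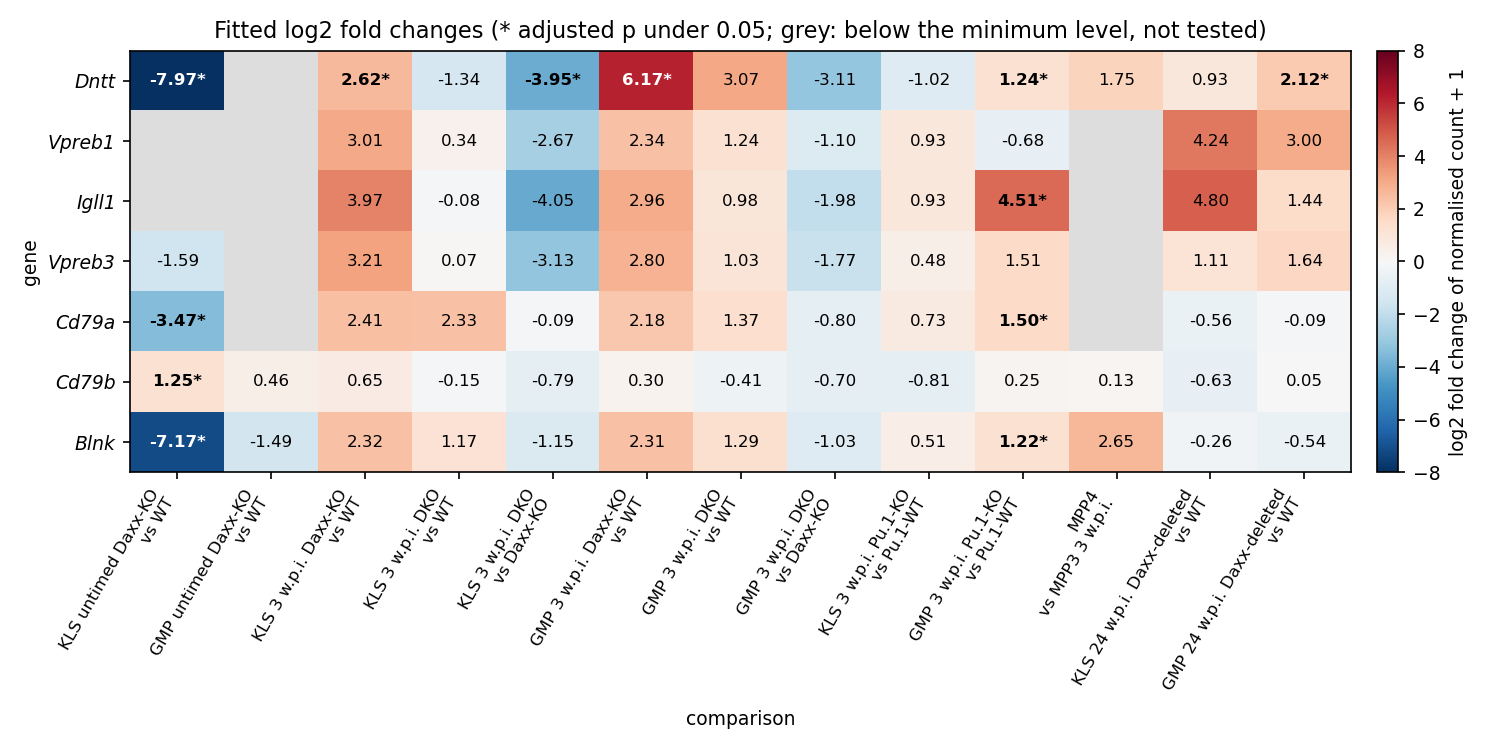
Fitted log2 fold change of the 7 members with reads in the 13 comparisons, with stars where the adjusted p was under 0.05 and grey where the member did not pass the filter on low values. The Dntt row holds the most starred cells, from −7.97 in untimed KLS cells to 6.17 in GMPs at 3 w.p.i., while the Cd79b row has a star only in untimed KLS cells.

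Across all 59 libraries Cd79b varied apart from the other 6 members, which varied together to differing degrees. Pearson's r of log2(RPM + 1), centred on the mean of each table, was 0.874 between Vpreb3 and Igll1, 0.807 between Vpreb1 and Igll1 and 0.649 between Dntt and Blnk, whereas Cd79b gave −0.143 to 0.194 with the other 6 genes. Without the libraries of Daxx-KO animal 2 the first 3 values were 0.765, 0.652 and 0.596. The weakest pair that leaves out Cd79b, Vpreb1 and Blnk, was at 0.422 with that animal and 0.250 without it. Cd79b gave −0.310 to 0.00618 without it. These are descriptions, since libraries share animals, sorts and depth.

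Among 11429 candidate genes with a mean of 10 or more normalised counts in every table, those most like Dntt were Il12a (r = 0.785), Cmah (0.711) and Ebf1 (0.692), and those most like Blnk were Ppp1r16b (0.864), Ebf1 (0.742) and Cmah (0.713). Ebf1 was also among the 3 genes most like Vpreb1 (0.628, with Cnbd2 and Rnf157), Vpreb3 (0.646, with Akap12 and Cecr2) and Igll1 (0.756, with Akap12 and Cecr2). Cd79a was most like Tmc8 (0.603), Blnk and Gm12057. Cd79b was most like Cdkn2c (0.647), Rgs10 and Pimreg, none of which was among the genes named for any other member. The libraries of Daxx-KO animal 2 were included, and these likenesses were not computed without them.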

How the data were processed

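RNA-seq of 59 libraries of sorted mouse bone marrow cells was deposited by the authors in 10 gene tables, 1 column per library. Per the submitters' processing notes the tools were CASAVA 1.8.4, cutadapt 1.13, STAR 2.5.3 and DESeq2 1.16.1, with the mm10 build. The read counter and its use of strand are not given in the sources used here. The library kit is not settled per library, since the labels name Ovation SoLo and the study's methods also describe a SMARTer stranded kit. The deposited values are a signal per gene, the gene's read count divided by 1 size factor per library. All values came out as whole reads within 0.01 (100% in every library), so depth was recovered as 3045852 to 30136629 reads per library, which sets the counting error of low genes. No value column was left out (0 unused).

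Groups were taken from the labels. GMP columns at 3 w.p.i. were matched through the animal numbers of the KLS titles, and columns of the Pu.1 line, of 24 w.p.i. and the unnumbered control called WT 3 through the control or treatment ending of their names. Members and lists were chosen by name with earlier results of these data known. The lists were 4 of related genes and 9 of cell type markers. Genes named besides the 9 members were Daxx, Spi1, up to 3 called genes of largest fold change per list and comparison, and the 3 most alike genes per member. Some genes that this rule names are not reported here. Ebf1 levels in single libraries were added after their values were seen.

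Tests were made with limma 3.58.1 (trend, R 4.3.3) on log2(value + 1) of genes with a mean of 10 or more, with all libraries of a table in 1 fit and Benjamini-Hochberg adjustment over all genes tested, and a gene was called at an adjusted p under 0.05. Fold changes on this scale understate the change of low genes. Alternatives were pseudocounts of 0.5 and 5, no filter, TMM scaling, leaving out each library, the replicate number as a block, and edgeR 4.0.16 quasi-likelihood and DESeq2 1.42.0 on the recovered reads. The comparison at 24 w.p.i., the block in GMPs at 3 w.p.i., and leaving out animals or the libraries that stood apart in the MPP table, were chosen after seeing the data. Scripts were tested on simulated data. Python 3.11.15 with numpy 2.4.6, pandas 2.3.3 and matplotlib 3.10.9 was used for the rest. Gene models, with the exon lengths behind RPKM, came from a GENCODE annotation of GRCm38. Promoters came from RefSeq (GRCm38.p6). MPP3 and MPP4 libraries of the same animal are paired by the animal number in the column names, with correlations of their deviations of −0.444, −0.0370, 0.422 and 0.547.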

Additional observations from a re-analysis of the deposited data

Results flagged for a closer look

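A pair of values stood apart from the other libraries of their group by Dixon's criterion. Igll1 was at 19.4 normalised counts in the MPP3 library of animal b and at 26.7 in the MPP4 library of animal a, and at 0 in the other 3 libraries of each group. Over 33 combinations of a member and a group of 4 to 10 libraries, 2 stood apart. Where all other values of a group are 0, any single value above 0 meets this criterion. The count therefore cannot be set against a chance rate.

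In 6 of 72 combinations of a member and a pair of comparisons, every library moved one way in one comparison and the opposite way in the other. The 72 include Rag1 and Rag2, at 0 throughout, and members below the filter on low values, which could not be counted. The share of all genes with such a reversal was not computed. In single comparisons of Daxx-KO with WT KLS cells, 29.8% of all genes were wholly lower and 32.9% wholly higher in the untimed set, and 9.07% wholly higher at 3 w.p.i. None of these differences was tested. For Daxx-KO against WT in KLS cells, the untimed fold change minus that at 3 w.p.i. was −10.59 on the log2 scale for Dntt (−7.97 and 2.62), −9.49 for Blnk (−7.17 and 2.32) and −4.80 for Vpreb3 (−1.59 and 3.21). In GMPs the same difference was −3.80 for Blnk (−1.49 and 2.31). For DKO against WT at 3 w.p.i., the KLS fold change of Dntt minus that in GMPs was −4.40 (−1.34 and 3.07). For Pu.1-KO against Pu.1-WT, the KLS fold change of Vpreb1 minus that in GMPs was 1.61 (0.93 and −0.68). The untimed tables and those at 3 w.p.i. were normalised separately and may differ in origin and library kit, which cannot be told apart from time.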

How the results depend on the processing

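Among all 80 member differences tested, 22 changed sign under some alternative, and none of these 22 had an unadjusted p under 0.05. The median over the members changed sign without a single library in GMPs for DKO against Daxx-KO (−1.10, and 0.62 without DKO 2) and against WT (1.24, and −0.07 without DKO 1). It also did so in KLS cells for DKO against WT (0.07, with −0.41 without WT 2 and −0.28 without DKO 2). In untimed GMPs it went from −0.52 to 0.47 without WT 1 and to 0.44 without WT 2, where 1 member in place of 2 passed the filter. Of the recomputed fold changes of named members, 329 kept their side of the threshold, 30 lost it and 13 gained it. The counts of members called moved as follows, and the cause was not tested unless named. With edgeR on recovered reads the count fell from 1 to 0 in GMPs at 3 w.p.i. (Daxx-KO against WT) and at 24 w.p.i. With DESeq2 it went from 1 to 2 in KLS cells at 3 w.p.i. (Daxx-KO against WT), from 1 to 3 for DKO against Daxx-KO KLS cells, from 0 to 1 for DKO against WT GMPs, from 0 to 2 in KLS cells at 24 w.p.i. and from 1 to 0 in GMPs at 24 w.p.i. In untimed KLS cells edgeR and DESeq2 called 5 members against 4, Igll1 being added, and without a filter Igll1 took the place of Cd79a, and in Pu.1-KO GMPs DESeq2 called 3 against 4, without Igll1. When single libraries were left out, which leaves fewer samples, the count ran from 2 to 5 in untimed KLS cells (main 4, with Vpreb3 gained without WT 1), 0 to 1 in untimed GMPs (Blnk, without Daxx-KO 1), 0 to 1 for Daxx-KO against WT in KLS cells and in GMPs at 3 w.p.i., 0 to 1 for DKO against WT in KLS cells (Dntt) and in GMPs (Dntt, without DKO 2), 1 to 2 for DKO against Daxx-KO KLS cells (Igll1 gained without Daxx-KO 3), 0 to 1 in Pu.1-KO KLS cells (Dntt, without Pu.1-KO a), 1 to 4 in Pu.1-KO GMPs, 0 to 1 between MPP4 and MPP3 (Dntt, without both libraries of animal b) and 0 to 1 in GMPs at 24 w.p.i. A lone remaining library was assumed to vary like those of the other groups.

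With the replicate number as a block, fitted on the numbered libraries only, 2 members (Blnk and Dntt) were called for Daxx-KO against WT in KLS cells at 3 w.p.i., 1 (Dntt) for DKO against WT and 2 (Dntt and Igll1) for DKO against Daxx-KO, and the block changed no other count of members called. The Dntt difference was then 2.79 (adjusted p = 0.00267) for Daxx-KO and −1.51 (adjusted p = 0.00435) for DKO against WT. The numbers did not pair these libraries, whose deviations correlated by −0.214 to 0.0689. In untimed GMPs the correlation was −0.111, and with the numbers crossed 4921 genes and 0 members were called, against 4209 and 0. For the GMPs at 3 w.p.i. a block on the animal numbers of the KLS titles, without the unnumbered WT library, was added after seeing the data and called 0 members and 0 genes in each comparison, with the Dntt difference of Daxx-KO against WT at 6.09 (adjusted p = 0.473), in place of 1 member. Deviations of animals with the same number correlated by −0.444 to 0.0865 there, so that the numbers did not pair them. No paired analysis was possible for the Pu.1 line and 24 w.p.i. because their columns carry no replicate number.

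The number of genes called depended on the tool in several comparisons. In Pu.1-KO KLS cells it was 190 (110 higher, 80 lower) by limma, 1599 with TMM scaling (1272 higher, 327 lower), 1687 by edgeR (1493 higher, 194 lower) and 911 by DESeq2 (614 higher, 297 lower). DESeq2 called 335 genes against 39 for Daxx-KO KLS cells, 67 against 13 for Daxx-KO GMPs, 258 against 40 and 270 against 8 for DKO GMPs relative to WT and Daxx-KO, and at 24 w.p.i. 528 against 133 in the KLS and 1063 against 613 in the GMP table. For DKO against Daxx-KO GMPs, edgeR called 20, TMM scaling 18, a pseudocount of 5 gave 17 and no filter 13. Without a filter 1751 genes were called in untimed KLS cells against 3118, and the block called 1283 against 2340 for DKO against Daxx-KO KLS cells and 81 against 39 for Daxx-KO against WT. Depth limits Igll1, Vpreb1 and Vpreb3 most, which in WT cells had few reads. Comparisons by genotype in LT-HSCs, and of Daxx-KO and DKO apart at 24 w.p.i., were not run, since the genotype is not tied to a column.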
